A study of Mus musculus with 8 samples.

Results

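Netrins are secreted proteins, related to laminins, that steer growing axons and other migrating cells. Netrin-1, the product of Ntn1, binds receptors of the DCC family (Dcc and Neo1, which encodes neogenin) and of the UNC5 family (Unc5a to Unc5d). These receptors are called dependence receptors because, in cells studied in other settings, they can signal cell death when no netrin is bound and guidance or survival when it is. The DCC-family receptors mostly mediate attraction, and the UNC5 receptors repulsion.

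The set described here holds 9 genes of the 17098 measured: the ligand genes Ntn1, Ntn3 and Ntn4, the receptor genes Dcc and Neo1, and Unc5a, Unc5b, Unc5c and Unc5d. The members were chosen by name around Ntn1, which was already known to be among the genes that fell most in these data, so the change of Ntn1 is given as a description with no test. Every probe set (a group of short probes that reads a single transcript region) whose annotation named none but a member was taken, 17 of 28898 such probe sets, and the leading probe set of each gene was selected on its mean over all 8 arrays, the highest of that gene. The selection thus used levels and not the difference between the groups.

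The treated cells were mouse embryonic stem (ES) cells of the C57BL/6 strain, HPRT deficient by their label and between passages 19 and 22, exposed for 8 h to 2.5 µM cisplatin, a platinum drug that crosslinks DNA. The control cells had the same deficiency, strain and passages and received the solvent DMSO for the same 8 h. Each group has 4 arrays. Both kinds of sample came from cells moved from feeder-coated to gelatin-coated plates, and no label tells if replicates were separate cultures. The p-values therefore measure the spread among these arrays, which may be technical.

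Values are log2 array signals as the authors deposited them. Probes that match no transcript and hold 24 G or C among their bases averaged 3.10, taken here as array background; dimmer genes can still carry signal. Of the 8 listed ES cell markers 7 were measured, and all were above background. Their mean was between 11.22 and 11.28 on the cisplatin arrays and between 11.44 and 11.47 on the control arrays, and 4 of them were lower with cisplatin. Of 9 fibroblast (feeder) markers 5, among them Dcn, Lum, Postn and Col1a2, were at or below background, while Vim, Thy1, Col1a1 and Col3a1 were above it; 2 were higher and none lower with cisplatin. The higher ones were Thy1, at 5.23 ± 0.23 with cisplatin and 4.62 ± 0.28 in the controls (SD, n = 4 each; adjusted p = 0.0176, limma), and Fbln2, below background in both groups. Vim, at 10.78 with cisplatin and 10.86 in the controls, did not pass. The mean of that list ran from 3.76 to 4.09 with cisplatin and from 3.80 to 3.98 in the controls. Of 6 neural markers 1 was higher and 1 lower. Neurod1 rose by 0.96 ± 0.15 and Pax6 fell by a log2 difference of -0.77 ± 0.16 (SE; adjusted p = 0.00188 and 0.00701, limma). Hprt was above background and did not pass the test, at 4.84 ± 0.16 with cisplatin and 4.60 ± 0.37 in the controls (SD, n = 4 each). Whether these marker shifts take part in the changes below was not tested.

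Of the 3 ligand genes, the array read a clear signal for Ntn1. Its leading probe set, 1454974_PM_at, was at 6.43, 6.30, 6.23 and 6.28 on the cisplatin arrays (replicates 3 to 6), against 7.73, 7.82, 7.82 and 7.70 on the control arrays. The 2 groups were far apart compared with the spread within either, and every array stayed well above background. The mean was 6.31 ± 0.09 with cisplatin and 7.77 ± 0.06 in the controls (SD, n = 4 each), a log2 difference of -1.46 ± 0.06 (SE), so that the cisplatin signal was 36.4% of the control signal. It was the decrease of rank 3 among all 17098 genes, which describes the reason for the choice and tests nothing. In samples of whole cultures, fewer cells that express Ntn1 and less Ntn1 RNA per cell cannot be told apart.

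The fall of Ntn1 rests on that probe set alone. The other Ntn1 probe set, 1422987_PM_at, read between 2.89 and 3.03 with cisplatin and between 2.78 and 3.00 in the controls, below background on all 8 arrays. Its difference was 0.02 ± 0.07 (SE). Below background a decrease can be hard to read, so the flat reading of this probe set does not decide the matter.

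Ntn3 and Ntn4 encode further secreted netrins. Ntn3 had 2.33, 2.27, 2.39 and 2.43 with cisplatin, against 2.58, 2.22, 2.47 and 2.48 in the controls, below background on all 8 arrays. Ntn4 had 2.75, 2.88, 2.94 and 2.83 with cisplatin, against 2.78, 2.67, 3.17 and 2.82 in the controls, and 1 array, control replicate 5, was above background. The groups overlapped for both genes. The differences were -0.08 ± 0.08 for Ntn3 and -0.01 ± 0.10 for Ntn4 (SE). Neither passed the test (adjusted p = 0.554 and 0.959, limma with Benjamini-Hochberg adjustment over all genes). At such levels a decrease may go undetected.

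**Figure D1:**
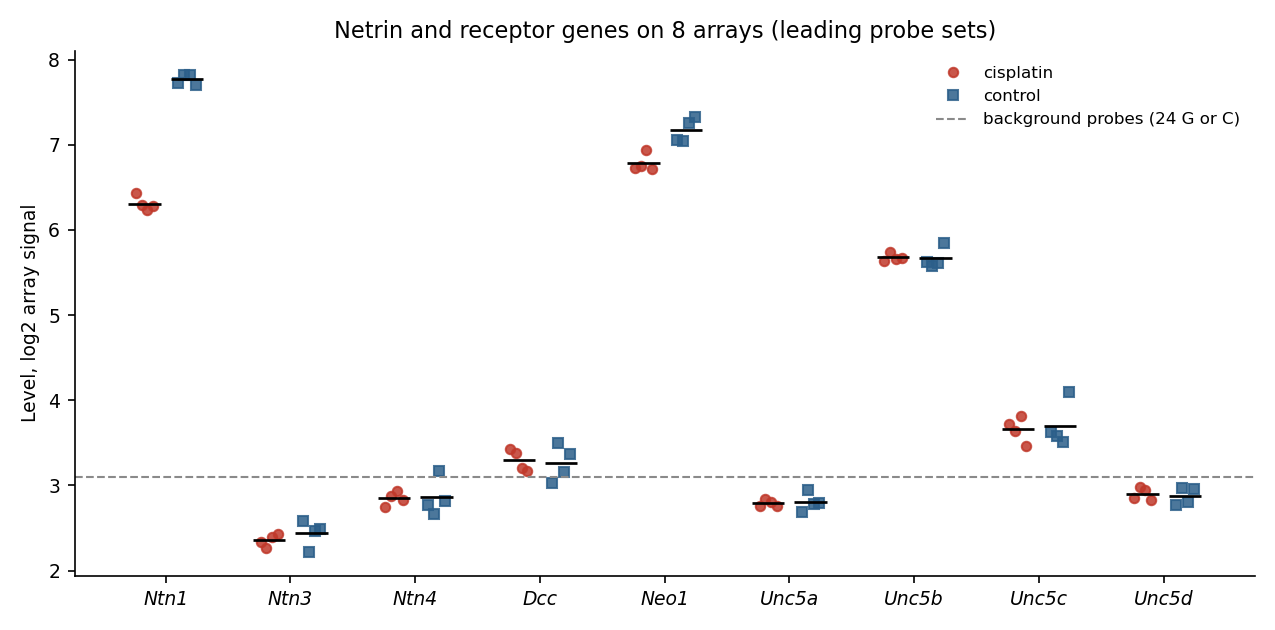
Log2 array signal (vertical axis) of the leading probe set of each of the 9 genes, with cisplatin arrays as circles on the left and control arrays as squares on the right of each gene; bars are group means (n = 4) and the dashed line is the background of 3.10. Ntn1 and Neo1 have cisplatin arrays that all lie below the control arrays; Unc5b lies near 5.67 in both groups, and the remaining genes lie close to or under the background line.

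Neo1 encodes neogenin, which binds netrins and also the repulsive guidance molecules. Its leading probe set, 1447693_PM_s_at, was at 6.73, 6.75, 6.94 and 6.71 with cisplatin, against 7.06, 7.05, 7.26 and 7.32 in the controls. Every cisplatin array lay below every control array, the closest being cisplatin replicate 5. Neo1 fell with a log2 difference of -0.39 ± 0.08 (SE; adjusted p = 0.00773, limma), to 76.3% of the control signal. The 95% interval of the log2 difference ran from -0.57 to -0.21. As the mean of its 4 probe sets Neo1 was at -0.24 (adjusted p = 0.00822).

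Of the 3 other Neo1 probe sets, 2 passed the test in the same direction on the same arrays. The probe set 1434931_PM_at averaged 5.86 ± 0.12 with cisplatin and 6.23 ± 0.14 in the controls (SD, n = 4 each), a difference of -0.37 ± 0.08 (SE; adjusted p = 0.0140 over all probe sets, limma). For 1423513_PM_at the means were 5.96 ± 0.06 and 6.22 ± 0.11, and the difference was -0.26 ± 0.07 (adjusted p = 0.0241). In both of them the groups did not overlap. The fourth probe set, 1447694_PM_x_at, stayed close to background, between 3.38 and 3.60 with cisplatin and between 3.40 and 3.44 in the controls, at 0.06 ± 0.06 (adjusted p = 0.610). Of 28898 probe sets with a single gene, 7.69% were lower at this threshold, and 8.60% higher.

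Dcc encodes the founding netrin receptor of the family. It lay at the edge of detection, with 3.43, 3.38, 3.20 and 3.17 with cisplatin, against 3.03, 3.50, 3.15 and 3.36 in the controls, above background on 7 of 8 arrays. The groups overlapped, and the difference was 0.03 ± 0.11 (SE; adjusted p = 0.878, limma). The control mean stood 0.16 above background, so a decrease as large as that of Ntn1 might not have been read here. Its other 2 probe sets were below background on every array.

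Among the UNC5 receptors, Unc5b was the one read well above background. Its leading probe set, 1435110_PM_at, had 5.64, 5.74, 5.66 and 5.67 with cisplatin, against 5.63, 5.58, 5.62 and 5.84 in the controls. The control arrays span the cisplatin arrays, and the difference was 0.01 ± 0.07 (SE; adjusted p = 0.932, limma). The 95% interval of the log2 difference, -0.14 to 0.16, does not include the size seen for Neo1. Centring each array lowers every change by 0.13. Unc5b was then at -0.12 and still did not pass (adjusted p = 0.230, limma). A dimmer probe set of Unc5b, 1453269_PM_at, averaged 4.67 ± 0.21 with cisplatin and 4.72 ± 0.15 in the controls (SD, n = 4 each), with a difference of -0.05 ± 0.11 (SE).

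Unc5c, Unc5a and Unc5d were at or near background. The leading probe set of Unc5c had 3.73, 3.64, 3.82 and 3.46 with cisplatin, against 3.62, 3.58, 3.51 and 4.10 in the controls, above background on all 8 arrays, with control replicate 6 the highest. Its difference was -0.04 ± 0.13 (adjusted p = 0.875, limma), and the interval from -0.33 to 0.25 is wide against the 0.60 that separates the control mean from background. Unc5a had 2.76, 2.84, 2.80 and 2.76 with cisplatin, against 2.68, 2.95, 2.78 and 2.80 in the controls. Unc5d had 2.85, 2.98, 2.94 and 2.83 with cisplatin, against 2.77, 2.97, 2.81 and 2.95 in the controls. Unc5a and Unc5d were below background on every array, and their groups overlapped, at -0.01 ± 0.06 and 0.02 ± 0.07 (adjusted p = 0.939 and 0.856).

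Of the 9 genes, 2 were lower (Ntn1 and Neo1), none was higher and 7 did not pass the test (limma, adjusted p under 0.05). At an unadjusted p under 0.05 the counts were again 2 lower and 0 higher. Of all genes tested 7.69% were lower and 11.6% higher, or 19.3% in either direction. Higher genes made up 60.2% of these calls, and 21.7% of the calls after the arrays were centred, with the same 2 members lower. Besides Ntn1, chosen for its fall, 1 of 8 genes passed, or 12.5%, which is no more than the 19.3% called in either direction. That gene, Neo1, was lower, as were 7.69% of all genes, and 1 call in 8 is too few to tell such shares apart. The groups of 4 arrays did not overlap for Ntn1 and Neo1, against 24.3% of all genes (10.1% lower and 14.2% higher). Of the genes above background 27.6% passed the test. Of the 5 members above background 2 did, and these include Ntn1, which was chosen for its fall. The median change of the 9 genes was -0.01, against 0.01 over all genes, and 5 of the 9 leading probe sets were above background. The 11 probe sets of the 7 other genes ran from -0.13 to 0.06, with no adjusted p under 0.398 over all probe sets.

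**Figure D2:**
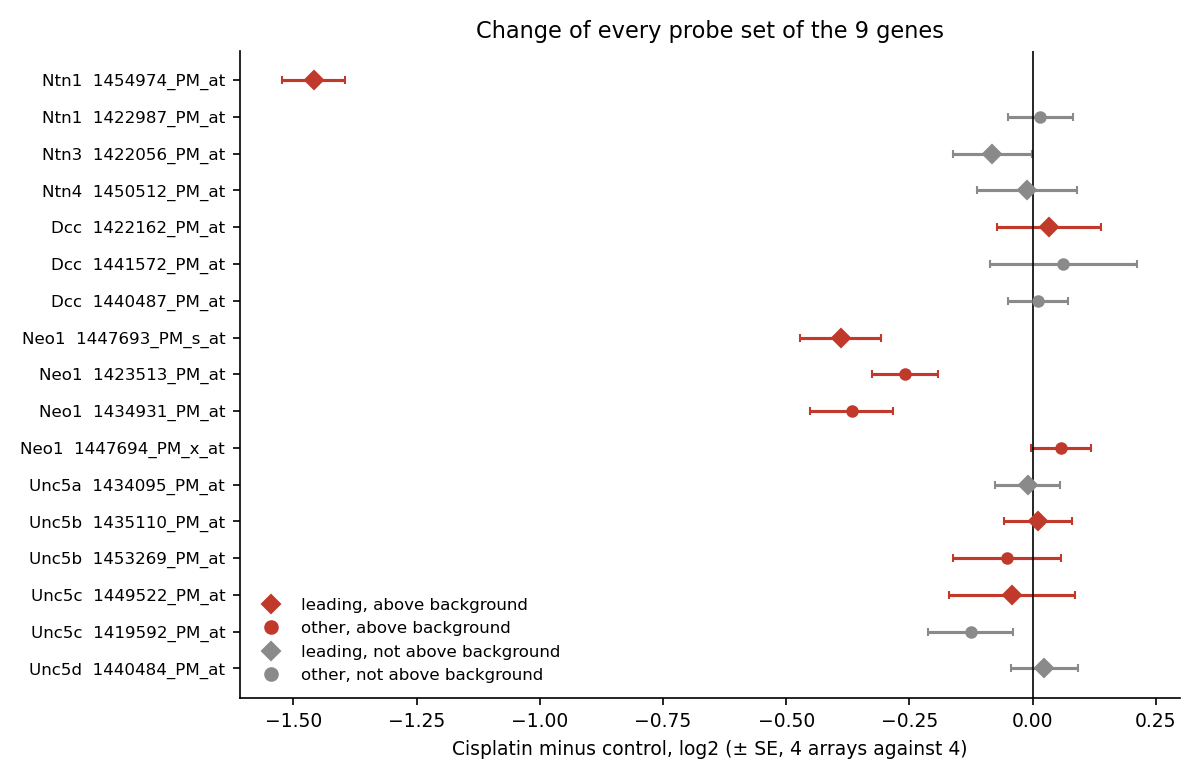
Log2 difference, cisplatin minus control (horizontal axis, ± SE, 4 arrays against 4), of all 17 probe sets of the 9 genes, with leading probe sets as diamonds and probe sets not above background in grey. The leading Ntn1 probe set stands at -1.46 and 3 of 4 Neo1 probe sets between -0.39 and -0.26, while the probe sets of the other genes lie between -0.13 and 0.06.

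The 2 genes that were lower are long in the mouse reference annotation, at 177 kb for Ntn1 and 162 kb for Neo1, and Unc5b, the other gene well above background, spans 69.0 kb. Of genes above background and over 100 kb, 40.5% of 1367 were lower with cisplatin and 5.34% higher. Of those up to 100 kb, 7.01% of 10081 were lower and 18.1% higher. The median log2 change was -0.20 in the long genes and 0.05 in the others. Among the long genes Ntn1 had the decrease of rank 2 and Neo1 that of rank 376. The other long members above background, Unc5c (369 kb) and Dcc (1098 kb), did not pass the test. At levels so near background a decrease of the size of Ntn1 may go unread. The part of gene length in the change of Ntn1 and Neo1 was not tested.

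**Figure D3:**
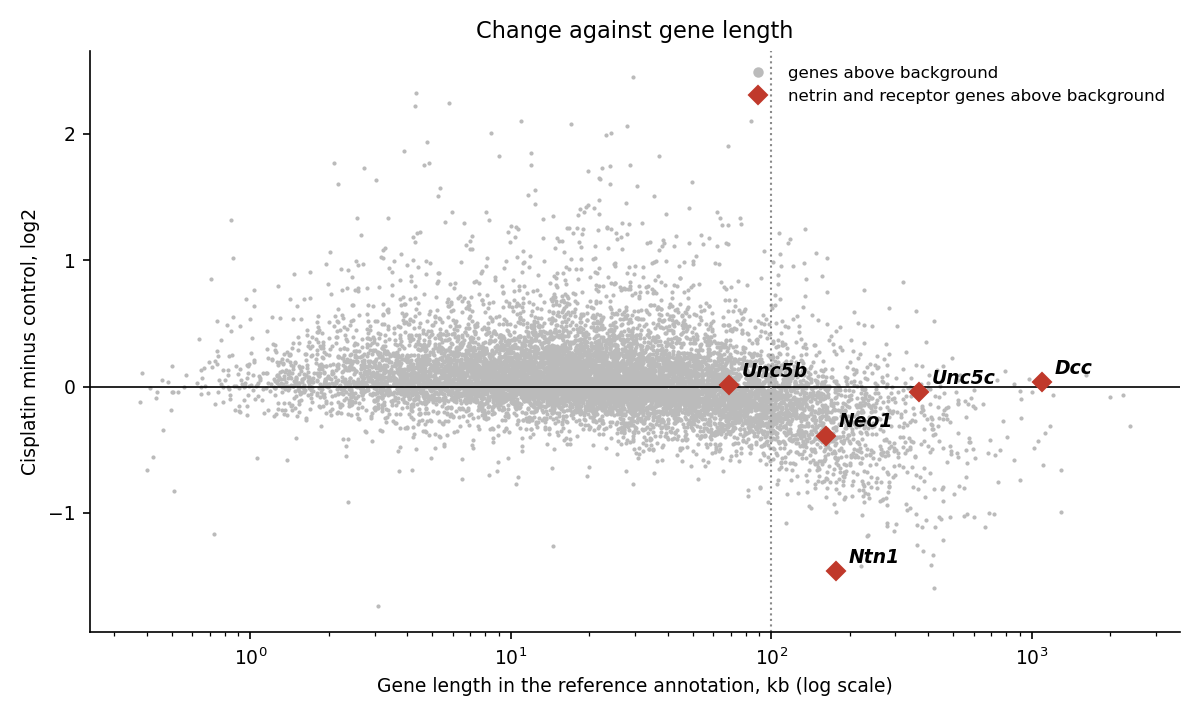
Log2 difference, cisplatin minus control (vertical axis), against gene length in kb on a log scale for genes above background, with the 5 netrin and receptor genes above background as diamonds; the dotted line marks 100 kb. Ntn1 (-1.46) and Neo1 (-0.39) lie on the long side among many decreased genes, and Unc5b lies at 0.01 on the short side.

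The genes with the profile nearest to that of Ntn1 were sought among all genes, as the smallest root mean square difference between log2 values over the 8 arrays, each gene centred on its own mean. They were Gli2, a transcription factor of Hedgehog signalling, at 0.06, the zinc finger gene Bnc2 at 0.07, the noncoding RNA gene Mirg at 0.15 and Arl15, a small GTPase gene, at 0.15. Gli2 averaged 7.07 ± 0.06 with cisplatin and 8.49 ± 0.07 in the controls (SD, n = 4 each). Arl15 averaged 6.06 ± 0.20 with cisplatin and 7.31 ± 0.06 in the controls. Gli2, Bnc2 and Arl15 are long genes, at 220, 409 and 363 kb, while Mirg spans 14.5 kb. The part of gene length in this likeness was not tested. Likeness over 8 arrays in 2 groups is mostly likeness of the difference between the groups, and it is given as a description.

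**Figure D4:**
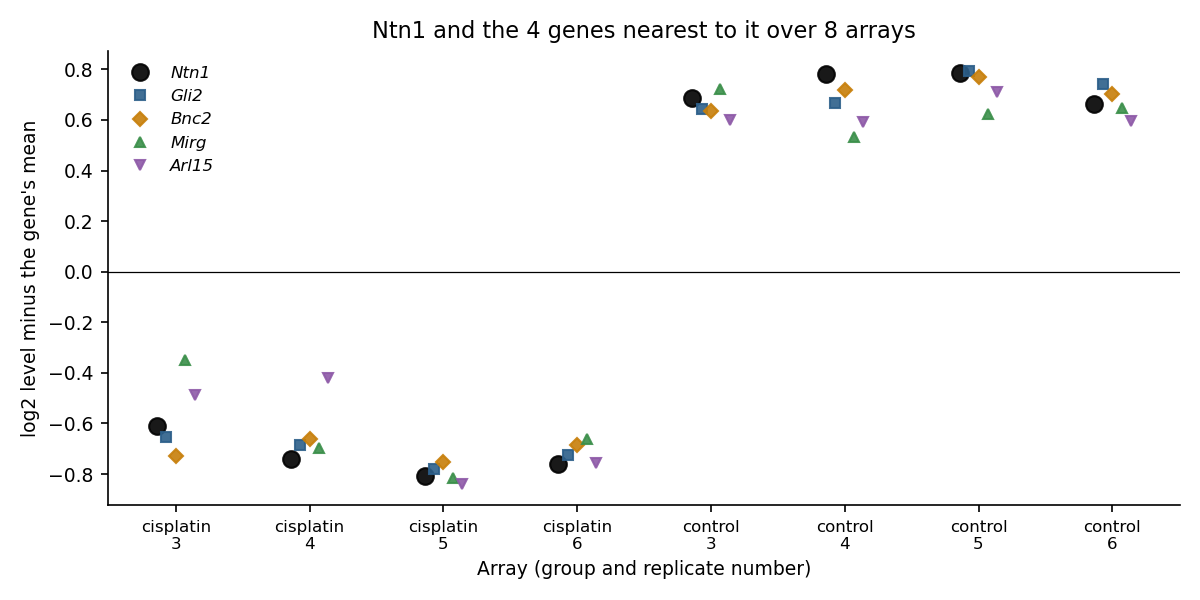
Log2 level minus each gene's own mean (vertical axis) on the 8 arrays (horizontal axis, cisplatin and then control, by replicate number) for Ntn1 and the 4 genes nearest to it. All 5 genes lie below 0 on the cisplatin arrays and above 0 on the control arrays, and Gli2 and Bnc2 lie nearest to Ntn1, at root mean square differences of 0.06 and 0.07.

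Upstream sequence was found in the RefSeq table of the build GRCm38.p6 for 6 of the 9 genes. The 250 bases before the annotated start are shown for Neo1 and Unc5b, the 2 receptors read well above background, of which the first fell and the second did not pass the test. Both run 5′ to 3′ on the minus strand, at chr9:59036442-59036691 and chr10:60831582-60831831, and capitals mark the GC box, GGGCGG on either strand.
Neo1: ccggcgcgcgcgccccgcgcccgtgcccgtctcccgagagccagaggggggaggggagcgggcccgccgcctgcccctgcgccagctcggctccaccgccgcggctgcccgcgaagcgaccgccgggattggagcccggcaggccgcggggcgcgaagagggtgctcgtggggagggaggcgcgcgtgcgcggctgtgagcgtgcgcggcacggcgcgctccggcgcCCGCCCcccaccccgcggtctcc
Unc5b: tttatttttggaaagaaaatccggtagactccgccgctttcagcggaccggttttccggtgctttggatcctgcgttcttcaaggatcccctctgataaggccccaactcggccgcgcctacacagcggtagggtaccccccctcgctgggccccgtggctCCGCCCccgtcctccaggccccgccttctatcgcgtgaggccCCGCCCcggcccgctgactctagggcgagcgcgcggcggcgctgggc
The Neo1 window holds 1 GC box and 45 CpG dinucleotides, and the Unc5b window 2 GC boxes and 27 CpG dinucleotides. The median over 32851 such windows is 6 CpG dinucleotides, and 32.7% of the windows hold a GC box. Neither window holds a p53 half-site, the decamer that p53 binds in pairs. Of the 6 genes Ntn3 alone has a match, and 7.13% of all windows have at least 1. These matches describe letters and show no binding.

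The other netrin family genes and ligand genes of these receptors were mostly not above background. Of 12 measured genes of the netrin family and of other ligands of DCC, neogenin and UNC5, 8 were not above background, 1 was higher and none lower (at an unadjusted p under 0.05 also 1 and 0), with a median of 0.00. The share called was 8.33%, against 19.3% of all genes and 27.6% of genes above background, as 4 of the 12 were. The higher gene was Cbln2, a synapse organiser of the cerebellin family, at 2.95 ± 0.11 with cisplatin and 2.61 ± 0.08 in the controls (SD, n = 4 each), below background in both groups; after centring, its difference of 0.35 became 0.21. The UNC5 ligand genes Flrt1 and Flrt3 were at -0.22 ± 0.14 and -0.09 ± 0.11, and the netrin antagonist gene Draxin at 0.14 ± 0.10 (adjusted p = 0.349, 0.653 and 0.373, limma).

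Among receptors outside the DCC and UNC5 families that have been described to bind netrin-1 or netrin-4, 2 of 7 were higher and 1 lower, or 42.9% called against 19.3% of all genes and 27.6% of genes above background, as 6 of the 7 were. Mcam, which encodes the adhesion molecule CD146, had 7.42, 7.47, 7.46 and 7.22 with cisplatin, against 6.11, 6.26, 5.91 and 5.78 in the controls. All cisplatin arrays lay above all control arrays, and Mcam rose by 1.38 ± 0.11 (SE; adjusted p = 3.79e-05, limma). The integrin gene Itgb4 rose by 0.42 ± 0.10, with its control mean of 3.09 at background (adjusted p = 0.0186), a call lost without control replicate 5 (0.40, adjusted p = 0.0511) and without variance moderation (adjusted p = 0.0688). Itga6, its partner in the integrin alpha6 beta4, was lower at -0.25 ± 0.06 (adjusted p = 0.0140), and at -0.38 after centring the arrays. Itgb1 did not pass, and its sign depended on the probe set: the leading one gave -0.10 ± 0.07 and the most variable one 0.18. After centring the arrays the leading one passed, at -0.23 (adjusted p = 0.0254).

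Inside the cell, DCC and UNC5 act on the actin skeleton through kinases, adaptors and activators of Rac. Of 20 such guidance partners, 7 were lower and 1 higher, or 40.0% called against 19.3% of all genes and 27.6% of genes above background, as 17 of the 20 were, with a median of -0.05. Tiam1, which encodes a Rac activator, fell to 6.29 ± 0.21 with cisplatin, against 7.30 ± 0.12 in the controls (SD, n = 4 each; difference -1.01, adjusted p = 0.000163, limma). As the mean of all its probe sets Tiam1 was at -0.36 (adjusted p = 0.00332). Dock1, another Rac activator gene, was at -0.85 ± 0.13, the actin regulator gene Enah at -0.46 ± 0.06 and the Src-family kinase gene Yes1 at -0.34 ± 0.06. Ablim1, which encodes an actin-binding protein, was the higher gene, at 0.62 ± 0.15 (adjusted p = 0.0159), a call lost without variance moderation (adjusted p = 0.0729). The mean of all probe sets gave 0.36 for Ablim1, and the most variable probe set -0.76 for Enah. Of the 7 lower genes 5 are over 100 kb, as are 9 of the 20.

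Of 8 partners in death signalling all were above background, 2 were higher and none lower (the same counts at an unadjusted p under 0.05), with a median of 0.03. The share called was 25.0%, against 27.6% of genes above background. Casp9, the initiator caspase gene linked to DCC, was at 0.30 ± 0.07 and the survival kinase gene Akt1 at 0.28 ± 0.06 (adjusted p = 0.00960 and 0.0139, limma). Both calls ended with the most variable probe set (0.08 for each, adjusted p = 0.745 and 0.726), with the mean of all probe sets (adjusted p = 0.0990 and 0.144) and after centring the arrays (adjusted p = 0.0645 and 0.170). Diablo, a mitochondrial antagonist of caspase inhibitors, was at 0.10 ± 0.05 and Ppp2r1b, a phosphatase subunit gene, at -0.25 ± 0.14 (adjusted p = 0.239 and 0.253). After centring Ppp2r1b passed, at -0.38 (adjusted p = 0.0476).

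Of 16 measured dependence receptors of other ligands, 10 missed the threshold, 4 fell and 2 rose. The share called was 37.5%, against 19.3% of all genes and 27.6% of genes above background, as 12 of the 16 were, and the median was -0.14. Lower were the Hedgehog receptor gene Ptch1 at -0.67 ± 0.07, the ephrin receptor gene Epha4 at -0.80 ± 0.11, the growth factor receptor gene Igf1r at -0.83 ± 0.12 and the stem cell factor receptor gene Kit at -0.82 ± 0.12 (adjusted p between 0.000134 and 0.00129, limma). Notch3, a receptor of Jagged and Delta ligands, rose by 0.98 ± 0.10, to 6.79 ± 0.20 with cisplatin, against 5.81 ± 0.13 in the controls (SD, n = 4 each; adjusted p = 0.000178). The size depended on the probe set: without probe sets that can match several transcripts Notch3 was at 0.34 (adjusted p = 0.0192), and as the mean of all probe sets Ptch1 was at -0.36 (adjusted p = 0.00102). The Hedgehog co-receptor gene Cdon was at 0.27 ± 0.08 (adjusted p = 0.0378), a call lost when any array but those of cisplatin replicate 6 and control replicate 4 was left out (adjusted p from 0.0600 to 0.0978) and after centring (0.14, adjusted p = 0.211). The call of Cdon also ended with the mean of all probe sets, with a repeated normalization, with an intensity trend and without variance moderation (adjusted p from 0.0633 to 0.0811).

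Other guidance systems are the slits with their Robo receptors, the semaphorins with plexins and neuropilins, and the ephrins. Of 30 measured genes 6 were higher and 3 lower, with a median of 0.05. The share called, 30.0%, is near the 27.6% of genes above background, as 24 of the 30 were, and compares with 19.3% of all genes. The plexin gene Plxnb2 was at 0.76 ± 0.12 and the Robo family gene Robo3, below background in both groups, at 0.50 ± 0.09 (adjusted p = 0.00137 and 0.00344, limma). Robo1 and its ligand gene Slit2 were lower, at -0.48 ± 0.08 and -0.53 ± 0.09 (adjusted p = 0.00201 and 0.00229), and Slit2 was at -0.34 as the mean of its probe sets. The semaphorin gene Sema3e was at -0.54 ± 0.15 (adjusted p = 0.0284), a call lost when any array but those of cisplatin replicate 3 and control replicate 6 was left out (adjusted p from 0.0571 to 0.0767) and without variance moderation (adjusted p = 0.103). As a check of the treatment, 8 of 8 listed p53 target genes were higher and 0 lower (also at an unadjusted p under 0.05), with a median of 1.35 and with Btg2, Plk2, Phlda3 and Mdm2 between 1.48 and 2.25.

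**Figure D5:**
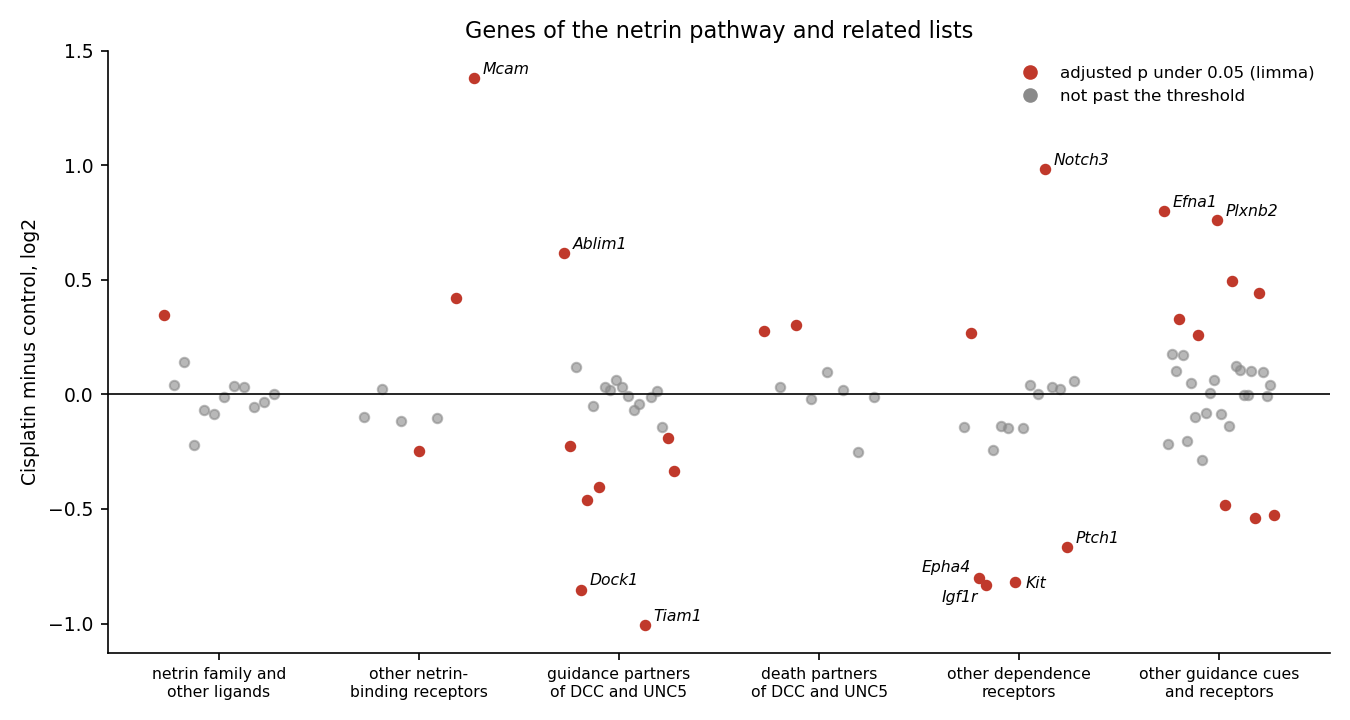
Log2 difference, cisplatin minus control (vertical axis), of each measured gene of 6 lists, with genes past the threshold in red and genes beyond 0.6 in size named. Mcam at 1.38 and Notch3 at 0.98 are the highest points, and Tiam1 at -1.01 (-0.36 as the mean of its probe sets) is the lowest, each gene being shown by its leading probe set; most genes of the netrin family and other ligands lie near 0.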

How the data were processed

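The authors deposited 1 table of log2 values, 1 column per array, made with RMA per the submitters' processing notes, which also name limma; no version is named there. RMA removes background, equalises the arrays and combines probes into probe sets on the log2 scale, which hides any shift of the whole RNA content. Array medians over all probe sets ran from 3.35 to 3.38. The centring among the alternatives shifted every change by 0.13, more than these medians differ, so it used medians over other values.

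Of 45141 probe sets, 104 were controls; 28898 had 1 gene in the platform annotation, 551 several and 15588 none listed, and the last 2 kinds were left out. Current symbols came through Entrez identifiers from a RefSeq table of GRCm38.p6, which held 16937 of the 17098 genes; its lengths serve as a property of the gene. Groups come from the sample titles. The groups were compared in R 4.3.3 with limma 3.58.1 (lmFit, eBayes, 1 term for treatment), adjusting p by Benjamini-Hochberg over all genes, with a threshold of 0.05 and no filter on dim genes; a second fit ran over all probe sets with 1 gene. The median SE of a log2 change was 0.08, and the 4 arrays per group limit the precision. The fit was tested on simulated data. Differences are given as cisplatin minus control.

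The members, the lists and the tests were chosen with earlier results of these data known. List genes are named where they have the 4 smallest p of a list or belong to 5 or fewer called in a direction. No set test was run. Alternatives covered the probe set per gene, dim genes, normalization, centring, the variance prior, the threshold, a replicate block and each array left out. Figures used matplotlib 3.10.9 in Python 3.11.15.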

Additional observations from a re-analysis of the deposited data

Results flagged for a closer look

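In 3 of 106 groups of 4 arrays looked at, over all member probe sets and the other named genes, a single array stood apart from the others by a gap above Dixon's critical share of the group's range; chance alone gives about 1 in 20. The leading probe set of Neo1 was at 6.94 on the array of cisplatin replicate 5, where the other 3 cisplatin arrays lay between 6.71 and 6.75. Without that array the change of Neo1 was -0.44 (adjusted p = 0.00671, limma). Akt1 was at 5.92 in control replicate 6, against 5.77 to 5.79 on the other control arrays. Arl15 was at 7.39 in control replicate 5, against 7.27 to 7.28 on the others.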

How the results depend on the processing

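Over 18 alternatives Neo1 stayed lower and past the threshold, from -0.52 to -0.24 (adjusted p from 0.00107 to 0.0317, limma), and from -0.44 to -0.34 with each array left out in turn. Without probe sets that can match several transcripts, another probe set led and Neo1 was at -0.26 (adjusted p = 0.0196). Ntn1 stayed negative throughout, from -1.50 to -1.43 with each array left out; it was at -0.72 as the mean of its 2 probe sets, of which 1 lies below background, and at -1.59 after centring. The number of the 9 genes past the threshold was 2 in every alternative. These were Neo1 and Ntn1, and Ntn1 was chosen for its fall, so its part in that count tests nothing. Centring each array lowered the median change of all genes by 0.13, to -0.12. It gave 5012 calls in place of 3303, 21.7% of them higher in place of 60.2%. At an adjusted p under 0.01 there were 1855 calls, and with an array left out from 2617 to 3042. The 7 members not called passed in 0 of 122 recomputed values, and 22 turned sign around 0. After centring Dcc was at -0.10, Unc5b at -0.12 and Unc5d at -0.11. Unc5b was at -0.052 by the most variable probe set, at -0.020 by the mean and at -0.0087 when normalized again, where Unc5a was at 5.6e-06. With an array left out, Ntn4 ran from -0.074 to 0.094, Dcc from -0.043 to 0.11, Unc5a from -0.050 to 0.039, Unc5b from -0.018 to 0.070, Unc5c from -0.11 to 0.091 and Unc5d from -0.011 to 0.054. Of 644 recomputed values of 36 other named genes, 607 kept their direction and side, 33 no longer passed, 2 newly passed and 2 turned: Itgb1, at 0.18 by the most variable probe set, and Diablo, at -0.033 after centring. The causes were not tested.

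Arrays of the same replicate number deviated together with correlations of 0.20, 0.18, 0.20 and 0.06 for numbers 3 to 6, against -0.17 to 0.11 between different numbers, and 7 of 8 arrays correlated best with their own number. That is a hint from the data that the numbers mark something shared, with 3 of 4 pairs over 0.1. The labels do not state it, and the main fit did not pair the samples. With the replicate block Neo1 was at -0.39 (adjusted p = 0.0112), Ntn1 at -1.46 and the calls numbered 3447.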
